A study of Cavia porcellus with 8 samples.

Results

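The most abundant transcripts of the guinea pig left ventricle were the 93 gene IDs whose level averaged 1000 CPM or more over all 8 libraries. CPM is the count of a gene scaled to 1000000 gene counts in the same library. The rule kept 93 of the 25028 IDs in the files, or 0.545% of the 17077 IDs with a count in some library. Because the members were chosen by their level in these same libraries, their levels, ranks and shares are descriptions and carry no test.

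Left ventricular wall was profiled in 4 adult, non-pregnant animals (Adult) and in 4 foetuses of gestation day 67 (Foetus), all of the Dunkin Hartley strain and none treated. Hearts had been flushed with a cardioplegic solution, which stops the heartbeat, to clear the blood. Total RNA was depleted of ribosomal RNA and read on an Illumina HiSeq instrument with a strand-specific kit. The 4 libraries per group are biological replicates, per the series design text. The sex of each animal is not given in the sources used here, and the housing protocol speaks of adult males and females, so sex and age cannot be told apart. Foetus replicates 1 and 2 share a number in their descriptions. Whether they came from 1 litter is not given in the sources used here, and if they did, the foetal libraries are not all independent.

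As background, heart muscle devotes a large part of its messenger RNA to few genes. These encode the contractile filaments, the calcium pumps and channels that start and end each beat, and the enzymes of mitochondrial respiration, several of them encoded by the mitochondrial genome itself. Around birth the ventricle changes from contractile isoforms and fuels typical of the foetus to those of the adult, with a growing reliance on fatty acid oxidation. None of this can be assigned to single members here. The files give Ensembl IDs without names, and 0 of the 93 members matched the 37416 genes of the reference table. For the same reason, the tissue was not checked against markers of heart muscle or of other cell types. The libraries come from the whole wall, so fewer cells of a type and less RNA per cell cannot be told apart in any of the values that follow. Gene lengths are not known either, so every rank is an order of counts and not of RNA molecules.

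Sequencing depth was lowest in Adult replicate 4, with 8009143 gene counts, and highest in Adult replicate 3, with 10846059. The smallest count of any member in any library was 2770, whose counting error is 1.90%, so counting error was small beside the spread between animals. All 93 members passed the filter on low counts. Adult replicate 4 and Foetus replicate 3 had the largest shares of reads outside annotated features, at 31.6% and 29.8%. The other adult libraries had 26.4% to 27.8%, and the other foetal libraries 24.6% to 25.2%.

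A small number of IDs held much of the sequencing. The 93 members took 42.4% of all gene counts on average over the 8 libraries. Their share was 42.4%, 41.2%, 39.6% and 44.6% in Adult replicates 1 to 4. In Foetus replicates 1 to 4 it was 44.5%, 42.0%, 41.5% and 43.0%. The groups overlapped fully, with means of 42.0 ± 2.11% (SD, n = 4) in Adult and 42.8 ± 1.30% (SD, n = 4) in Foetus. The 95% Wilson interval of any library reached at most 0.0344 percentage points to either side, for counting error only. The 4 highest IDs alone took 19.2% of all counts, which is 45.4% of the counts of the members, and 6 members held 50% of the members' counts. At the other end, 60 members averaged between 1000 and 2000 CPM.

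**Figure D1:**
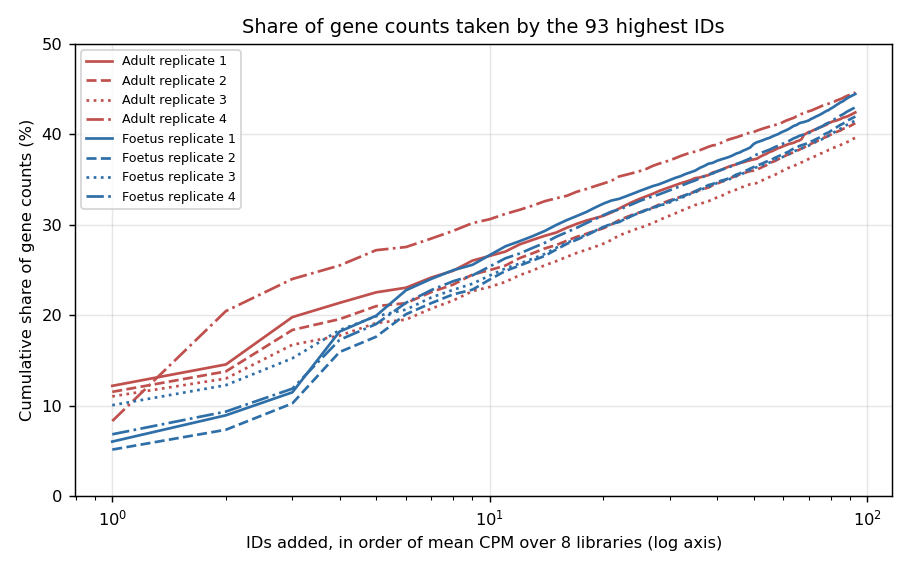
Cumulative share of gene counts (%, y axis) as the 93 IDs are added in order of their mean CPM over 8 libraries (x axis, log scale), with 1 line per library. Adult replicate 4 runs above the other adult lines from the second ID on, and the lines end between 39.6% and 44.6%.

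The make-up of that total differed between adult and foetal ventricle. The 4 highest members took 17.7% to 25.5% of counts in Adult and 15.9% to 18.4% in Foetus, so these groups overlapped. Their means were 21.0 ± 3.32% and 17.4 ± 1.11% (SD, n = 4 each), and the gap of 3.61 points became 2.13 points without Adult replicate 4. The members ranked 5 to 10 took 5.12% to 5.42% in Adult and 6.04% to 8.47% in Foetus. Those ranked 11 to 50 took 9.63% to 11.4% in Adult and 11.8% to 12.4% in Foetus. Those ranked 51 to 93 took 4.38% to 5.25% and 5.32% to 5.60%. In these 3 lower classes, unlike the first, every foetal library lay above every adult library. The classes were formed from these same values, so this is a description. In ranks 5 to 10, most of the difference of -2.38 points came from ENSCPOG00000028565, at -17069 CPM. Over all members, 17 reached 1000 CPM in the foetal mean only and 8 in the adult mean only, and such members raise the sum of their own group. Breadth was also larger in Foetus, since 78 to 93 IDs reached 1000 CPM in single adult libraries and 97 to 106 in single foetal libraries. Shares add up to a whole, so a high value of 1 ID lowers the others in that library. With ENSCPOG00000017401, which was very high in Adult replicate 4, taken out of the counts, the other 92 members held 41.0%, 39.9%, 38.4% and 37.0% in Adult replicates 1 to 4 and 42.8%, 40.7%, 40.2% and 41.6% in Foetus replicates 1 to 4.

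ENSCPOG00000003907 had the most counts of any ID in both group means and was first in 5 of the 8 libraries. It reached 121956, 115309, 110269 and 83020 CPM in Adult replicates 1 to 4, and 60293, 51445, 100529 and 68358 CPM in Foetus replicates 1 to 4. Adult replicate 4 lay below Foetus replicate 3, so the groups overlapped. ENSCPOG00000017401, at rank 2, stood at 23625, 22578 and 19767 CPM in Adult replicates 1 to 3 and at 121597 CPM in Adult replicate 4. Its foetal values of 29076, 21939, 22156 and 25117 CPM overlapped the first 3 adult ones, and its place in the order rests on 1 adult library. ENSCPOG00000007045, at rank 3, measured 52354, 45832, 37332 and 35502 CPM in Adult and 25392, 29134, 29721 and 25328 CPM in Foetus. All of its adult libraries lay above all foetal ones.

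The fourth and the sixth ID had the most uneven levels between the ages among the 10 highest. ENSCPOG00000016614, at rank 4, measured 15749, 12009, 10103 and 14928 CPM in Adult and 67118, 56796, 31114 and 53934 CPM in Foetus. It was the first ID of all in Foetus replicates 1 and 2, and its lowest foetal library, Foetus replicate 3, was still above every adult one. ENSCPOG00000028565, at rank 6, measured 5123, 3330, 3767 and 3502 CPM in Adult and 28227, 24882, 7363 and 23526 CPM in Foetus. Foetus replicate 3 was again the lowest foetal library, at a ratio of 0.288 to the mean of the other 3. This ID had rank 5 in the foetal mean and rank 17 in the adult mean.

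The fifth, the seventh and the eighth ID were close to level between the ages. ENSCPOG00000010717 averaged 14213 ± 2156 CPM in Adult and 16850 ± 1034 CPM in Foetus (SD, n = 4 each, as for all group means of CPM that follow). ENSCPOG00000002077 averaged 11257 ± 1350 and 13071 ± 798 CPM. ENSCPOG00000010901 averaged 8300 ± 602 and 9380 ± 621 CPM. All 3 means were slightly lower in Adult. The ninth and the tenth ID moved in opposite directions. ENSCPOG00000007936 measured 11238, 11111, 10364 and 8601 CPM in Adult and 5963, 5210, 6763 and 6488 CPM in Foetus. ENSCPOG00000019609 measured 5204, 4932, 4648 and 4268 CPM in Adult and 10758, 11173, 9026 and 9820 CPM in Foetus. Neither ID had any overlap between the groups.

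**Figure D2:**
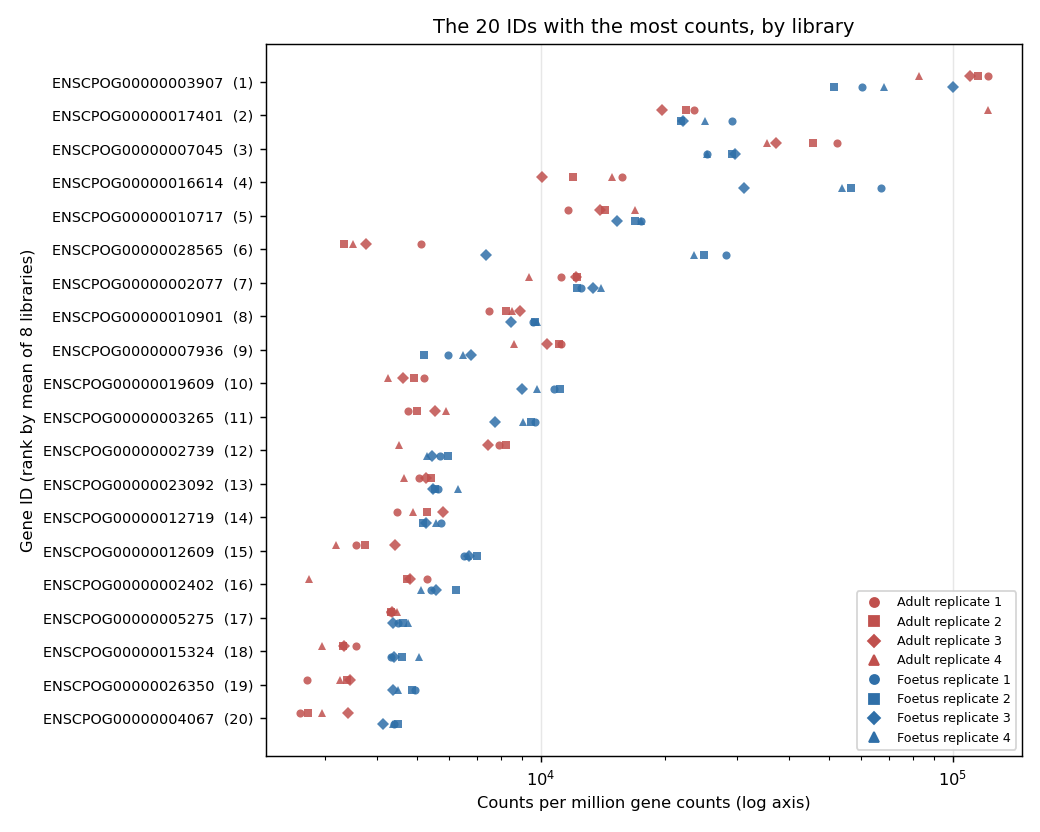
Level of the 20 IDs with the most counts (y axis, in rank order) in each of the 8 libraries (x axis, CPM, log scale), adult libraries in red and foetal libraries in blue. The fourth and the sixth ID lie far to the right in the foetal libraries, and 1 adult point of the second ID, Adult replicate 4, lies at 121597 CPM.

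Ranks moved less at the top of the order, where neighbouring levels are far apart, than lower down, where they are crowded. Levels did not follow that pattern, since the median size of the log2 fold change was 0.64 in the 10 highest members, 0.41 in ranks 11 to 50 and 0.57 in ranks 51 to 93. Of the 10 highest IDs in the adult mean and the 10 highest in the foetal mean, 8 were the same, and 7 members were among the 10 highest in all 8 libraries. Over all members, 52 stood among the 93 highest IDs of every library, and 51 reached 1000 CPM in every library. Rank moved by a median of 14 places between the group means. A move of 20 places or more occurred in 43 members, 0 of them among the 20 highest. The rank correlation (Spearman) over the 93 members, which share library and depth, was 0.645 between the group means. It had a median of 0.892 over the 6 pairs of adult libraries (range 0.768 to 0.965), 0.967 over the 6 pairs of foetal libraries (0.930 to 0.980) and 0.657 over the 16 pairs between groups (0.528 to 0.763). The farthest moves were those of ENSCPOG00000017252, 28th in the foetal mean and 230th in the adult mean, and of ENSCPOG00000029136, 41st in Adult and 186th in Foetus.

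The comparison of adult with foetal ventricle was tested in every gene together, with the quasi-likelihood test of edgeR and Benjamini-Hochberg adjustment over all 11831 tested genes. Genes were called at an adjusted p under 0.05, and a positive log2 fold change means a higher level in Adult. Of the 93 members, 49 were called (52.7%), beside 34.1% of all tested genes. Tested genes at 100 to 1000 CPM, a wide class below the members, were called in 55.2% of cases, near the members' share. A threshold of 500 CPM, which adds IDs nearer to the members, gave 152 called of 234 IDs (65.0%, members included). The added IDs were thus called more often than the members. Adult and foetal values did not overlap in 47 members (50.5%). This held for 31.8% of all tested genes and 50.8% of the genes at 100 to 1000 CPM.

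The calls were divided unevenly between the directions. Higher in Adult were 14 members (15.1%), beside 18.4% of all tested genes and 25.8% of those at 100 to 1000 CPM. Lower in Adult were 35 members (37.6%), beside 15.7% and 29.3%. With a threshold of 500 CPM, 40 of 234 IDs, members included, were called higher and 112 lower. The median log2 fold change was -0.23 over the members, 0.02 over all tested genes and -0.01 over those at 100 to 1000 CPM. Whether the members differ from those genes in this was not tested. A mean over both groups can be carried by 1 of them, and 17 members reached 1000 CPM in the foetal mean only against 8 in the adult mean only. Among the 68 members with both group means at 1000 CPM or more, 10 were called higher (14.7%) and 20 lower (29.4%). The genes at 100 to 1000 CPM had 25.8% and 29.3%, but were chosen by the overall mean alone, so the sets are not alike.

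Scaling by library totals moved this division. Higher calls made up 28.6% of all calls with TMM, the main scaling, and the counts stayed at 14 and 35 with RLE size factors and with TMM factors from the genes that are not members. Upper quartile scaling gave 12 higher and 37 lower. Library totals alone gave 17 higher and 34 lower (33.3% higher), and library totals without ENSCPOG00000017401 gave 19 and 29 (39.6% higher). Those last fits moved the median log2 fold change of all tested genes to 0.09 and 0.13, so part of every rise under them is that shift. Across these other scalings, 33.4% to 34.0% of all tested genes were called. The count of higher members also moved with single libraries, as did the share of all tested genes called, 34.1% in the main fit. The count was 9 without Adult replicate 2, without Foetus replicate 2 or without Foetus replicate 4, and 21 without Adult replicate 4. All tested genes were called in 28.3%, 25.9%, 25.9% and 40.5% of cases in those fits. Higher members also numbered 9 when Foetus replicates 1 and 2, which may share a litter, were summed into 1 library. That fit called 27.2% of all tested genes. No called member changed its sign in any of 19 other fits, and 37 members, 9 higher and 28 lower, were called in every one of them. The fits share most of their libraries. The same counts over all tested genes are not given here, so neither is read as particular to the members.

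**Figure D3:**
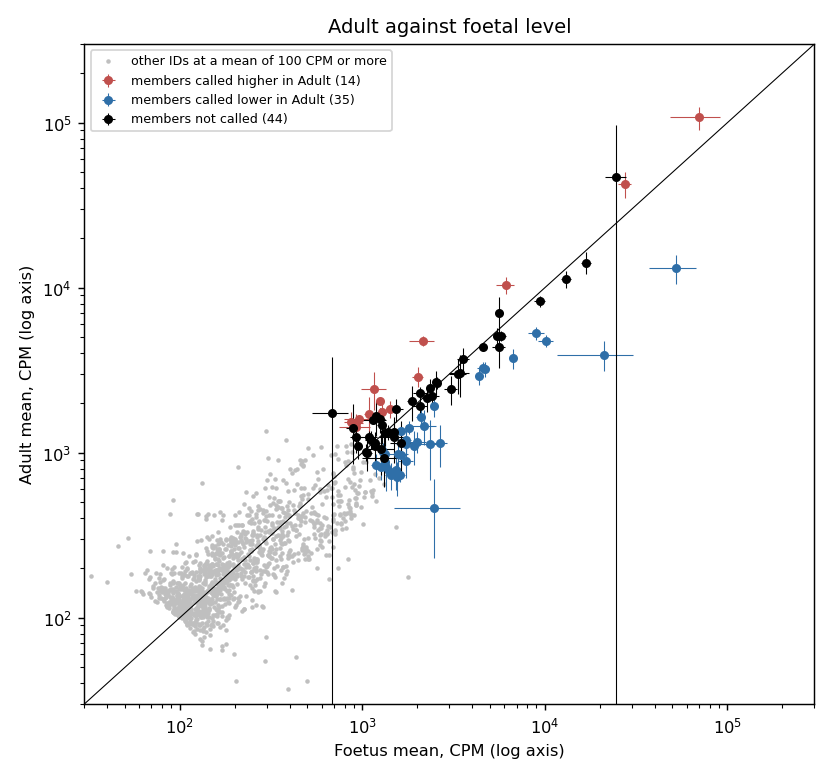
Mean level in Adult (y axis, CPM) against Foetus (x axis, CPM), both on log scales, for the 93 members, with bars of 1 SD over 4 libraries, and for other IDs at 100 CPM or more (grey). Called higher members (14, red) lie above the line of equal levels and called lower members (35, blue) below it. Bars that would reach 0 run off the axis, as for ENSCPOG00000017401 and ENSCPOG00000029136.

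Most changes were modest in fold. The median size of a called log2 fold change was 0.69, and 35 of the 49 called members changed by less than 2-fold. Of the 4032 calls over all tested genes, 639 were rises of 2-fold or more and 448 were falls of that size. Most calls were thus under 2-fold there too, so this is not read as particular to the members. Only 2 of the 93 members were called and at least doubled in Adult (5.4% of all tested genes were). Called and at least halved were 12 of the 93 (3.79% of all tested genes). Of the 1265 tested genes at 100 to 1000 CPM, 58 were doubled and 85 halved by the same rule. Of the 12 halved members, 7 had an adult mean under 1000 CPM and were members through their foetal level. Among the 68 members with both group means at 1000 CPM or more, 2 were doubled and 5 halved. The count of 2 doubled members became 1 without Adult replicate 1, 2 or 3 or Foetus replicate 1, 2 or 4. The approximate standard error of a member's log2 fold change had a median of 0.13 and ran from 0.09 to 0.61.

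In absolute terms the rise was carried by few IDs. Summed over the 14 called higher members, the adult mean exceeded the foetal mean by 6.66% of all gene counts, and ENSCPOG00000003907 and ENSCPOG00000007045 made up 5.28 points, or 79.3%, of that. ENSCPOG00000003907 averaged 107639 ± 17096 CPM in Adult and 70156 ± 21394 CPM in Foetus, a log2 fold change of 0.56 with a standard error of 0.19 (edgeR adjusted p = 0.0463). That call was fragile. It was lost in 9 of 19 other fits. Over all 19, the adjusted p of edgeR, DESeq2 or limma ran from 0.000395 to 0.136. Without Adult replicate 1, 2 or 3 or Foetus replicate 1, 2 or 4 it was lost each time (edgeR adjusted p = 0.0967, 0.106, 0.0833, 0.115, 0.136 and 0.109), and with Foetus replicates 1 and 2 summed the edgeR adjusted p was 0.117. ENSCPOG00000007045 averaged 42755 ± 7824 and 27394 ± 2361 CPM, a log2 fold change of 0.58 with a standard error of 0.15 (edgeR adjusted p = 0.0108), and was called in every fit.

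The steepest called rises lay lower in the order. ENSCPOG00000005092, ranked 22nd, measured 4290, 4899, 5044 and 4861 CPM in Adult and 1905, 1826, 2532 and 2307 CPM in Foetus. Every adult library was well above every foetal one, and the log2 fold change was 1.09 with a standard error of 0.12 (edgeR adjusted p = 8.05e-05). ENSCPOG00000007895, ranked 39th, measured 2957, 2716, 2552 and 1534 CPM in Adult and 977, 1192, 1399 and 1088 CPM in Foetus. Adult replicate 4 came nearest to the foetal libraries without reaching them, and the log2 fold change of 1.01 (standard error 0.19, edgeR adjusted p = 0.00192) sits at the boundary of a doubling. ENSCPOG00000007936, the ninth ID, rose by 0.69 on the log2 scale with a standard error of 0.13 (edgeR adjusted p = 0.00203). The 12 called higher members under 2-fold had log2 fold changes from 0.30 to 0.77.

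The fall was also carried largely by few IDs, though less so than the rise. Summed over the 35 called lower members, the change from Foetus to Adult was -9.15% of all gene counts. ENSCPOG00000016614 and ENSCPOG00000028565 made up 61.4% of that, and the other 33 together a change of -3.53%. Some of the 35 reached 1000 CPM in the foetal mean only and so had to be lower in Adult. The members not called changed by 1.71%, with 2.23% from ENSCPOG00000017401 and -0.53% from the other 43. All 93 members together changed by -0.78 points. ENSCPOG00000016614 averaged 13197 ± 2614 CPM in Adult and 52240 ± 15180 CPM in Foetus, a log2 fold change of -2.06 with a standard error of 0.25 (edgeR adjusted p = 0.000168). ENSCPOG00000028565 averaged 3931 ± 815 and 21000 ± 9303 CPM, a log2 fold change of -2.50 with a standard error of 0.36 (edgeR adjusted p = 0.000458), the largest fall among the members. Without Foetus replicate 3, the library that was lowest in both, their log2 fold changes were -2.25 and -2.79.

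ENSCPOG00000017252, ranked 50th, was a member through its foetal level alone, so it had to be lower in Adult, and its values are a description of that choice. It measured 803, 391, 306 and 346 CPM in Adult and 3786, 1663, 1806 and 2641 CPM in Foetus. Adult replicate 1 was the highest adult library and Foetus replicate 1 the highest foetal one. The log2 fold change was -2.49 with a standard error of 0.37, and -2.93 without Adult replicate 1. ENSCPOG00000019609, the tenth ID, fell by 1.17 on the log2 scale with a standard error of 0.12 (edgeR adjusted p = 7.99e-05), with SDs of 400.2 CPM in Adult and 963 CPM in Foetus. The other 8 halved members had log2 fold changes from -1.29 to -1.03 and ranks from 36 to 88. They averaged 1430 to 2655 CPM in Foetus and 711 to 1146 CPM in Adult. ENSCPOG00000017252 and most of these 8 make up the 7 halved members with an adult mean under 1000 CPM, which had to be lower in Adult. Groups did not overlap in any of the 8, but all were picked as called and halved, so no result is read from that. The 23 called lower members under 2-fold ran from -0.93 to -0.34.

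**Figure D4:**
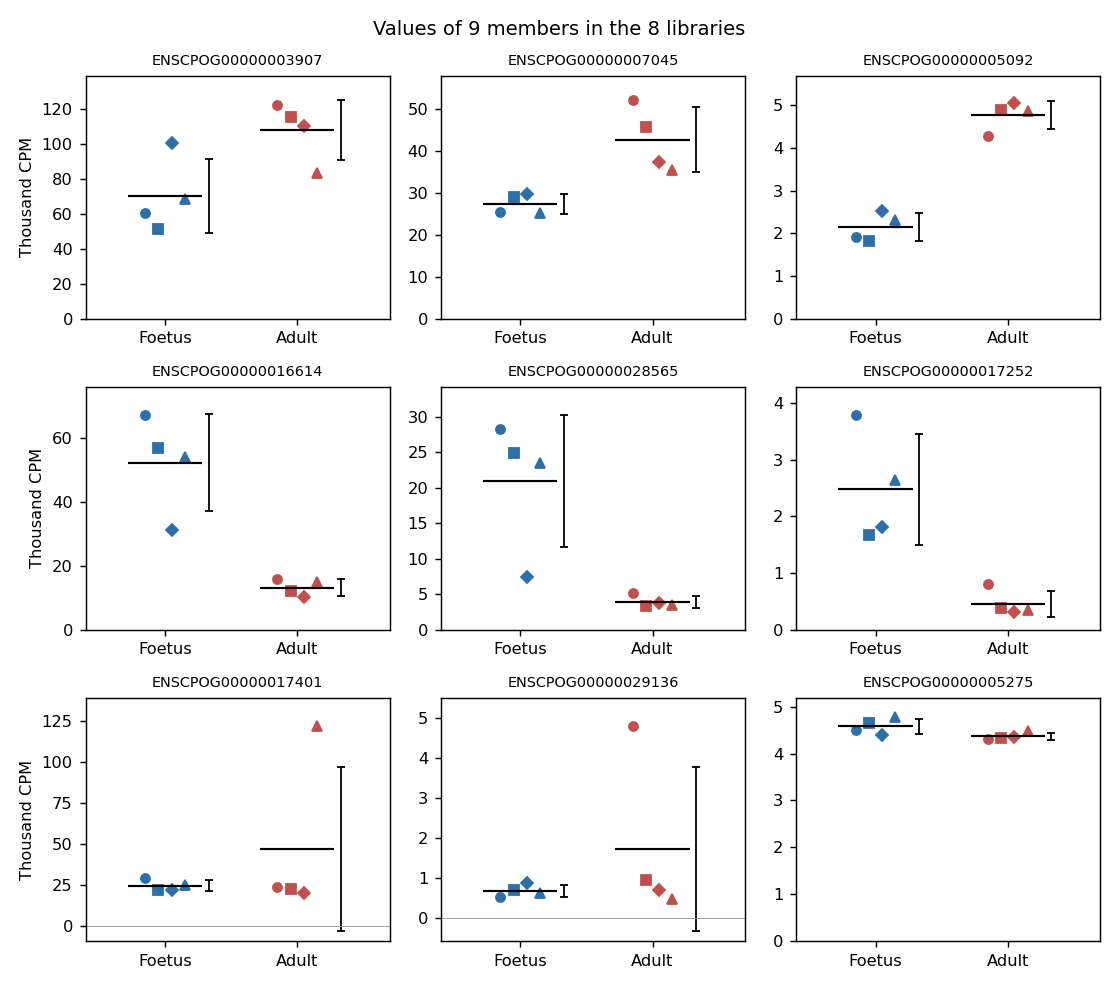
Level (y axis, in units of 1000 CPM, each panel on its own scale) of 9 members in the 4 foetal and 4 adult libraries, with replicates 1 to 4 as circle, square, diamond and triangle, the mean as a line and 1 SD as a bar. Foetus replicate 3 is the lowest foetal point of ENSCPOG00000016614 and ENSCPOG00000028565, and 1 adult point stands far above the rest in ENSCPOG00000017401 and in ENSCPOG00000029136.

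A difference was not called in 44 members, and this does not show that they were equal between the ages. The 95% interval of the log2 fold change lay within 0.5 of 0 in 21 of them and reached past it in 23. ENSCPOG00000010717 had a log2 fold change of -0.32 (standard error 0.13, edgeR adjusted p = 0.0828), and without Adult replicate 4 it was called at -0.43 (edgeR adjusted p = 0.00732, range over 19 other fits 0.00310 to 0.289). ENSCPOG00000002077 stood at -0.29 (standard error 0.11, edgeR adjusted p = 0.0724), although its adult libraries, at 11243, 12251, 12179 and 9353 CPM, were all below its foetal ones, at 12542, 12294, 13426 and 14021 CPM. It was called in 2 of 19 other fits, upper quartile scaling (edgeR adjusted p = 0.0384) and DESeq2 (DESeq2 adjusted p = 0.0299). ENSCPOG00000010901 stood at -0.25 (standard error 0.11, edgeR adjusted p = 0.0881), and 4 other fits called it.

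The steadiest member was ENSCPOG00000005275, ranked 17th, which had a coefficient of variation (SD over mean) of 3.67% over all 8 libraries. It measured 4318, 4333, 4348 and 4483 CPM in Adult and 4510, 4645, 4386 and 4775 CPM in Foetus. The groups overlapped within a narrow band, and the log2 fold change was -0.14 with a 95% interval from -0.35 to 0.07 (edgeR adjusted p = 0.297). In all, 9 members varied by less than 10% over the 8 libraries. Their ranks ran from 8 to 91. A small variation over both groups together also limits the difference between the groups, so no count of calls is read from these 9.

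Spread between animals was wider in Adult for most members. The median coefficient of variation was 15.9% in Adult and 7.20% in Foetus, a ratio of 2.21, and the adult value was the larger in 79 of the 93 members. With TMM-scaled CPM the ratio was 1.73. The same ratio over other genes is not given here. Without Adult replicate 4, again in CPM without TMM, the adult median was 10.9% and the ratio 1.51. That library had the lowest value of its group in 46 members and the highest in 18. With ENSCPOG00000017401 taken out of the counts, these became 36 and 34 of 92 members. Adult replicate 1 was lowest in 37 members and highest in 25. The median distance of a member from the other libraries of its group was 0.34 on the log2 scale in Adult replicate 4 and 0.24 in Adult replicate 1, and 0.08 to 0.14 in the other 6 libraries.

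**Figure D5:**
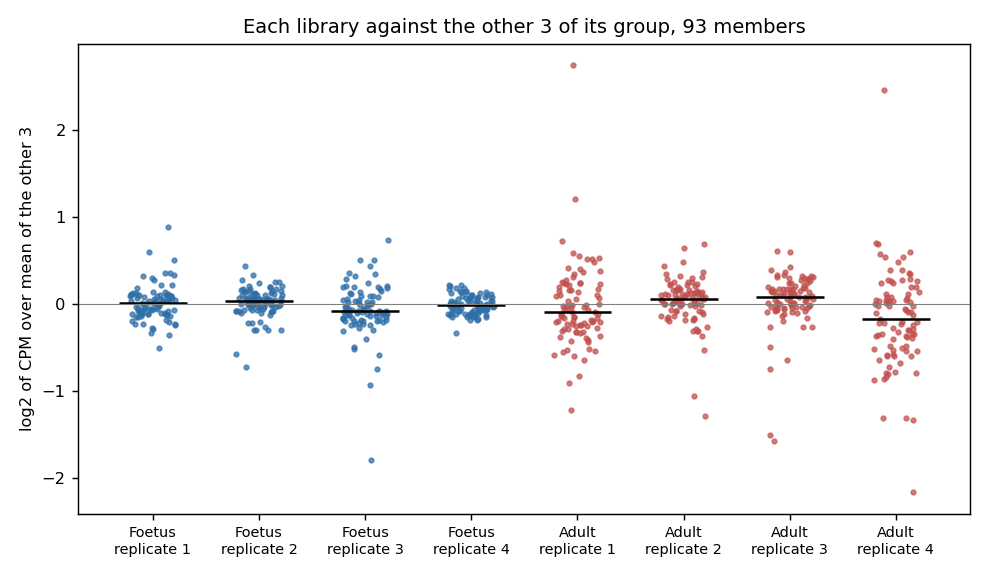
Level of each of the 93 members in 1 library relative to its mean in the other 3 libraries of the group (y axis, log2 of the CPM ratio), with 1 point per member and the median as a line. Points spread most in Adult replicates 1 and 4, and the highest points are ENSCPOG00000029136 in Adult replicate 1 and ENSCPOG00000017401 in Adult replicate 4.

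Both members with the largest departures owe their adult mean to 1 library. ENSCPOG00000017401 averaged 46892 ± 49830 CPM in Adult and 24572 ± 3334 CPM in Foetus, a log2 fold change of 0.87 with a standard error of 0.52 (edgeR adjusted p = 0.224). Without Adult replicate 4 it was -0.25 (edgeR adjusted p = 0.179), and over the other fits the adjusted p ran from 0.0981 to 0.596. ENSCPOG00000029136, ranked 68th, measured 4802, 964, 698 and 481 CPM in Adult and 521, 710, 880 and 623 CPM in Foetus. Its log2 fold change was 1.32 with a standard error of 0.61 (edgeR adjusted p = 0.119). Without Adult replicate 1 it was -0.0093 (edgeR adjusted p = 0.979), where the other fits ran down to 0.0743, and that library alone held it above 1000 CPM in Adult.

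Among the called members, Foetus replicate 3 was most often the foetal library nearest to the adults. Of these 49, 26 had it as the foetal library closest to the adult level, against 6, 8 and 9 for Foetus replicates 1, 2 and 4. Adult replicate 4 was the adult library closest to the foetal level in 23, Adult replicate 3 in 17, Adult replicate 1 in 9 and Adult replicate 2 in 0. Without both Foetus replicate 3 and Adult replicate 4, 60 members were called, 20 higher and 40 lower. Calls rose over all tested genes too, to 39.5% in that fit from 34.1% in the main fit. Foetus replicate 3 and Adult replicate 4 had the largest shares of reads outside annotated features in their groups. The part of that in their position was not tested.

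The threshold of 1000 CPM divided IDs of nearly equal level. Just inside were ENSCPOG00000012966, which averaged 1105 ± 185 CPM in Adult and 944 ± 50.6 CPM in Foetus, and ENSCPOG00000023568, which averaged 848 ± 135 and 1192 ± 68.3 CPM. Just outside were ENSCPOG00000002201, at 1132 ± 228 and 863 ± 40.4 CPM, and ENSCPOG00000010438, at 647 ± 75.8 and 1322 ± 171 CPM. On either side of the threshold, 1 ID was higher in the adult mean and 1 in the foetal mean.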

How the data were processed

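The authors deposited, per file, whole-number counts of reads per Ensembl gene ID, with no normalization. Aligner, genome build, annotation, counting program and strand setting were not given in the sources used here, though the summary lines carry names used by htseq-count. The submitters' processing notes name DESeq2 and give no version. The authors' table of normalised values was not used here, and 0 columns of other samples were met. The summary lines were kept apart from the gene counts. Reads assigned to genes made up 30.5% to 38.8% of a file, reads outside features 24.6% to 31.6%, reads aligned at several positions 33.9% to 38.1% and ambiguous reads 0.0201% to 0.0536%. Reads aligned at several positions were in no gene, so members with near-identical copies are uncertain, as are overlapping and antisense genes because the strand setting is unknown.

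CPM used the total of gene counts in each library. Counts were tested with edgeR 4.0.16 (R 4.3.3), robust quasi-likelihood, TMM scaling, filterByExpr and no covariate, and the standard error was derived from the test statistic. The scripts were tested on simulated data. Alternatives were DESeq2 1.42.0, limma-voom (limma 3.58.1), other scalings, no filter, a replicate block and left-out libraries. Intervals of shares are 95% Wilson intervals.

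The members, lists and tests were chosen with earlier results of these data known. Named were the 10 highest members, the 2 steepest called rises and falls without overlap, the 3 members with the largest ratio of 1 library to its neighbour among those past Dixon's critical value in a group, the 2 IDs on either side of the threshold, the steadiest member and the members that moved most in rank. Gene lists and cell type markers needed symbols and were not analysed here, since 0 of 25028 IDs matched the reference table. The alternatives without ENSCPOG00000017401 in the library size, without Adult replicate 4 and Foetus replicate 3 together, and with Foetus replicates 1 and 2 summed, and the share of the 4 highest members without Adult replicate 4, were chosen after seeing the data.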

Additional observations from a re-analysis of the deposited data

Results flagged for a closer look

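A library was taken to stand apart from the other 3 of its group when the distance to its neighbour, as a part of the whole range of the 4 values, exceeded the critical value of Dixon's test at the 95% level. Chance alone does so in about 1 in 20 sets. Of the sets of named members and shares, 4 passed. ENSCPOG00000017401, ENSCPOG00000029136 and ENSCPOG00000022072 were named because 1 library stood apart in them, so this number is not set against chance. Over both groups of all 93 members, 8 of 186 sets passed, where chance gives 9.3.

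ENSCPOG00000017401 in Adult had a gap of 0.962 of the range, from Adult replicate 4, which was 5.15 times the next highest adult library. ENSCPOG00000029136 in Adult had a gap of 0.888, from Adult replicate 1, which was 4.98 times the next highest. ENSCPOG00000022072 in Adult, ranked 53rd, had a gap of 0.922 because Adult replicate 4, at 1188 CPM, was below 1734, 1704 and 1748 CPM in Adult replicates 1 to 3. Its log2 fold change was 0.28 (edgeR adjusted p = 0.130) and 0.38 without that library (edgeR adjusted p = 0.00621, range over 19 other fits 0.00621 to 0.270). ENSCPOG00000010901 in Foetus had a gap of 0.856 because Foetus replicate 3, at 8455 CPM, was below 9595, 9683 and 9786 CPM in the other 3.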

How the results depend on the processing

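The difference in share, Adult minus Foetus, was -0.78 points for all members and 1.23 points for the 10 highest. Every alternative kept within 1 SD (1.75 and 2.41 points), but each SD exceeds its difference, so a change of sign also passes. With libraries left out in turn, the difference ran from -1.66 to 0.01 and from -0.20 to 2.30 points. Without ENSCPOG00000017401 it was -2.25 and -0.55 points. For all members it was -2.44 points at a threshold of 500 CPM and 0.25 points at 2000 CPM. The number of members ran from 93 to 98 when libraries were left out, and the ratio of spreads from 1.51 to 2.54. Leaving out libraries gave 9 to 21 members called higher in place of 14 and 32 to 40 called lower in place of 35. It gave 1 to 2 doubled in place of 2 and 10 to 14 halved in place of 12. The share of all tested genes called ran from 25.9% to 40.5% in those fits. Called higher were 9 members with Foetus replicates 1 and 2 summed and 7 at an adjusted p under 0.01. The share of all tested genes called at that stricter level is not given here. A threshold of 500 CPM kept 234 IDs (65.0% called) and gave 40 higher, 112 lower, 9 doubled and 42 halved. One of 2000 CPM kept 33 IDs (42.4% called) and gave 5, 9, 1 and 3. Of the 68 members with both group means at 1000 CPM or more (44.1% called), 20 were lower and 5 halved. These shares stand beside 52.7% of the 93 members and 34.1% of all tested genes in the main fit. Doubled members numbered 1 with RLE size factors, upper quartile, TMM on the other genes, DESeq2, limma-voom and Foetus replicates 1 and 2 summed, since ENSCPOG00000007895 sits at the 2-fold boundary. The log2 fold change of ENSCPOG00000017401 ran from -0.25 to 1.13 when libraries were left out and was -0.32 without Adult replicate 4 and Foetus replicate 3 together. That of ENSCPOG00000029136 ran from -0.0093 to 1.60 and was 1.72 without both of these libraries.

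A replicate block gave 10 higher, 34 lower, 1 doubled and 12 halved, and ENSCPOG00000003907 then had an edgeR adjusted p of 0.0754. That fit called 29.3% of all tested genes, beside 34.1% in the main fit. Deviations of same-numbered libraries correlated at -0.20 to 0.07, and only Adult replicate 2 correlated best with its own number. With 4 libraries per group, these values cannot tell whether the shared number reflects a link between samples. The labels do not state a pairing.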

Other observations

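Outside the 93 members, 17 further IDs averaged 1000 CPM or more in Foetus alone and 9 in Adult alone. The 17 averaged 1006 to 1772 CPM in Foetus and 177 to 878 CPM in Adult. The 9 averaged 1012 to 1356 CPM in Adult and 296 to 883 CPM in Foetus. With them, 102 IDs reached 1000 CPM in the foetal mean and 85 in the adult mean. These values were selected by level in 1 group, so the gap between the groups carries no test.

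Adult replicate 4 was also low, at ratios of 0.405, 0.399 and 0.405 to the mean of the other adult libraries, in ENSCPOG00000006836, ENSCPOG00000015697 and ENSCPOG00000026832, which were picked out after their values were seen.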
